A study of Mus musculus with 39 samples.

Results

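Binding of NOTCH and RBPJ was examined at 9 genes that encode layer-identity and differentiation factors of cortical projection neurons: Tbr1, Fezf2, Bcl11a, Bcl11b, Cux1, Cux2, Rorb, Zeb2 and Zbtb18. A binding peak was given to one of these genes when the nearest start site of any protein-coding gene on mm10 belonged to it. By that rule 68 of 20809 consensus peaks belonged to the 9 genes. A consensus peak is the merged span of overlapping peaks from 4 peak lists. The 9 genes also held 49 of 14097 peaks of RBPJ in radial glial cells (RGC RBPJ), 19 of 3702 peaks of Notch in radial glial cells (RGC Notch), 23 of 5497 peaks of RBPJ in intermediate progenitor cells (IPC RBPJ) and 12 of 2157 peaks of Notch in intermediate progenitor cells (IPC Notch).

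The peaks come from Targeted DamID (TaDa), in which a bacterial DNA adenine methylase, Dam, is fused to a chromatin protein and methylates GATC sites wherever the fusion touches chromatin. Plasmids were electroporated into wild-type MF1 mouse cortex in utero at E13.5 and the tissue was dissected at E14.5. In RGCs, which are the neural stem cells of the cortex, the Hes5 promoter drove Dam fused to human RBPJ1 in 3 samples and to mouse Notch in 4 samples, 2 of them carrying NdECD and 2 carrying NICD. In IPCs, which are the progeny of RGCs and divide to give neurons, the Tα1 promoter drove Dam fused to human RBPJ1 in 3 samples and to mouse NICD in 4. Dam alone under the same promoters served as the control, in 5 RGC and 4 IPC samples. The labels of 4 of the 5 RGC controls name the Notch and RBPJ tracks, and it is not stated which controls entered the peak calls. Both lists of a cell type rest on shared Dam-only controls. The promoter alone defines the cell type, since no cells were sorted, and the fusion proteins were added to the endogenous ones. The peak lists combine the replicates of a condition and hold positions with no height and no value for single samples. They therefore allow no test between groups, the cell type labels could not be checked against marker genes, and every share below is a description with a Wilson 95% interval that covers counting error over peaks only.

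The 9 factors act as the cortex builds its layers from the inside out. TBR1 specifies corticothalamic neurons of the deepest layer, FEZF2 specifies subcerebral neurons of layer V, and BCL11B (CTIP2) acts with FEZF2 in axon outgrowth. CUX1 and CUX2 mark and shape upper-layer neurons, and RORB marks the neurons that receive thalamic input. ZEB2 and ZBTB18 (RP58) are repressors that act as neurons leave the progenitor state. NOTCH signalling keeps RGCs undifferentiated: its cleaved intracellular domain, NICD, joins the DNA-binding protein RBPJ and turns on repressors of neuronal genes such as the Hes family.

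All 4 lists called 4 of the 68 consensus peaks (5.88%; 2.31 to 14.2%), against 0.678% of the whole set, 2 of them at Zeb2 and 2 at Zbtb18. Their reference sequences are given first because they are the places where RBPJ and Notch were both called in both cell types. Each run holds 300 bases of the plus strand of GRCm38 (mm10), centred on the stretch covered by the most lists, which in these 5 peaks was every list called there. Capitals mark the RBPJ word TTCCCA or its reverse complement TGGGAA. The Cux2 peak just upstream of the gene, called in every list but RGC Notch, follows for comparison.
Zeb2 intron, chr2:45024688-45024987: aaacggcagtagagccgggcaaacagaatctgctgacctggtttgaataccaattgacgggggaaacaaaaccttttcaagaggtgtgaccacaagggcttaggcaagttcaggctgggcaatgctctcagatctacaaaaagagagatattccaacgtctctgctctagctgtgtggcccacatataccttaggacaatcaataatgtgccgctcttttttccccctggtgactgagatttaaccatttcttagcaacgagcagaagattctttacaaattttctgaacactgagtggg
Zeb2 distal, chr2:46297464-46297763: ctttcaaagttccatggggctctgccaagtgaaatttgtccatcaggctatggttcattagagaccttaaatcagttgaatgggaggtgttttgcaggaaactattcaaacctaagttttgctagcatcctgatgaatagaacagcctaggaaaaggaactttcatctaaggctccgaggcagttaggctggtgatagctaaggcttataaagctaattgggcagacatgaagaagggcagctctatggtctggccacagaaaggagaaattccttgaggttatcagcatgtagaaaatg
Zbtb18 upstream, chr1:177411193-177411492: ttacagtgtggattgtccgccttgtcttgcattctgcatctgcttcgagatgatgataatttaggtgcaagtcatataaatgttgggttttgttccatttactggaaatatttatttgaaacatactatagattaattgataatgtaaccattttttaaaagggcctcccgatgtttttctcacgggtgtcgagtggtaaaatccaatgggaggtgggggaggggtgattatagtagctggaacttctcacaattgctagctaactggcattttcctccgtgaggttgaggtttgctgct
Zbtb18 downstream, chr1:177484926-177485225: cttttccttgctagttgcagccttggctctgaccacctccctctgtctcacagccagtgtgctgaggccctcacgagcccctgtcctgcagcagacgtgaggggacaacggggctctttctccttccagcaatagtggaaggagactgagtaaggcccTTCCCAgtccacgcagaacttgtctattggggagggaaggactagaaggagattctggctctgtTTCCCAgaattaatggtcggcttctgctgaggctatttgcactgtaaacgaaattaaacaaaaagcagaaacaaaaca
Cux2 upstream, chr5:122054082-122054381: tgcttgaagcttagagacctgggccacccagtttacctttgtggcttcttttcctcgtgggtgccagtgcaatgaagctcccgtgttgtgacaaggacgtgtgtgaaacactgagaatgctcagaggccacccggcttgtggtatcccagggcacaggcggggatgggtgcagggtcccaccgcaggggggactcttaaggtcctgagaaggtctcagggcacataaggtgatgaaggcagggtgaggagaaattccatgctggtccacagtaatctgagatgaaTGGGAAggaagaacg

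The Zbtb18 downstream window held 2 RBPJ words and the Cux2 window held 1, whereas the other 3 windows held none. Over the whole consensus peak, the Zeb2 intron and Zbtb18 upstream peaks each held 3 words, and the Zeb2 distal peak held 0. Across the 8 peaks of these genes called in 3 or 4 lists, 4 windows centred on the stretch covered by the most lists held the word, 1 of them at Fezf2, where that stretch was covered by 2 of the 3 lists called. Among all 807 such peaks in the consensus set, 36.6% of windows held it. A match of letters is a description and not a binding site, and the spacing of GATC sites limits how finely TaDa places a peak.

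Every one of the 9 genes had a consensus peak, against 38.7% of 21938 protein-coding genes. Numbers differed widely between them, from 1 peak at Tbr1 to 19 at Bcl11a, with a median of 6. At least 5 consensus peaks were found at 7 of the 9 genes and at 4.7% of protein-coding genes. Genes with long intergenic flanks collect more nearest peaks, so the counts were also set against territory, the length of genome that lies closer to a start site of that gene than to any other. The 9 territories summed to 4.92 Mb and held 13.8 consensus peaks per Mb, against 7.86 per Mb over the nuclear chromosomes. By list, the territories held 9.96 RGC RBPJ peaks per Mb (5.32 over all chromosomes), 3.86 RGC Notch peaks (1.40), 4.68 IPC RBPJ peaks (2.08) and 2.44 IPC Notch peaks (0.815). Density was also above the genome value in territory within 100 kb of a start site, at 24.2 peaks per Mb for the 9 genes and 9.61 for all genes.

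**Figure D1:**
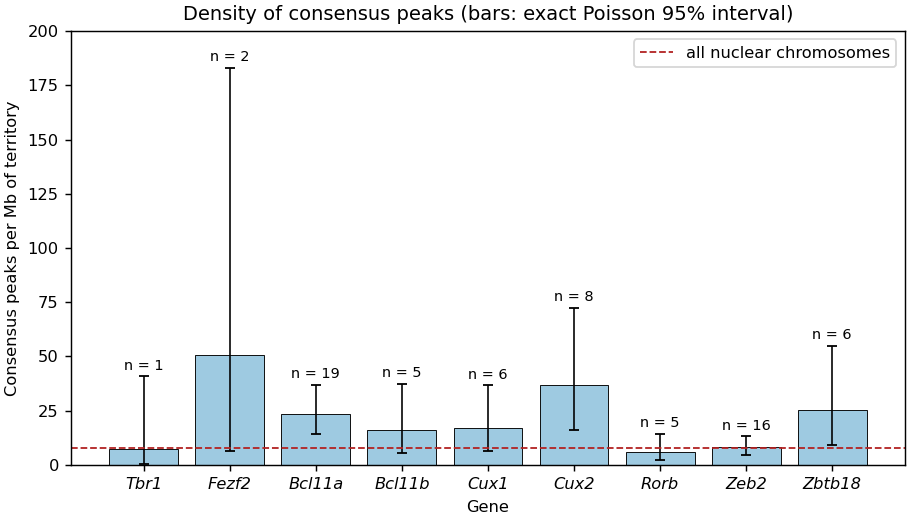
Consensus peaks per Mb of territory for each gene, with exact Poisson 95% intervals from the number of peaks (n) and the genome-wide value as a dashed line. The interval lies above 7.86 per Mb for Bcl11a, Cux2 and Zbtb18 and spans it for the other genes. It covers counting error only, treats peaks of the same gene as independent, and is not a test.

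The density separated genes whose raw counts looked alike. Zeb2 had 16 peaks, but its territory of 1.99 Mb was the longest, and its density of 8.04 per Mb (exact Poisson 95% interval 4.59 to 13.1) was close to the genome value. Bcl11a, with 19 peaks in 0.805 Mb, reached 23.6 per Mb (14.2 to 36.9). Within 100 kb of a start site, however, Zeb2 kept 8 peaks and Bcl11a kept 4. The contrast in density between these genes therefore takes in distant territory, and densities within 100 kb are not given per gene. Cux2 had 8 peaks in 0.218 Mb, or 36.7 per Mb (15.8 to 72.3), and Zbtb18 had 6 in 0.238 Mb, or 25.3 per Mb (9.27 to 55.0). Rorb, with 5 peaks in 0.823 Mb, gave 6.08 per Mb (1.97 to 14.2). The values for Fezf2, 50.7 per Mb (6.14 to 183.1), and Tbr1, 7.32 per Mb (0.185 to 40.8), rest on 2 peaks and 1 peak. Bcl11b gave 16.0 per Mb (5.18 to 37.2) and Cux1 gave 16.9 per Mb (6.19 to 36.7).

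RGC RBPJ was the most widely shared list, with a peak at 9 of 9 genes (30.9% of protein-coding genes). RGC Notch peaks were found at 8 of 9 genes (11.5% of protein-coding genes), the exception being Tbr1. IPC RBPJ peaks were found at 5 of 9 genes (16.1%), namely Bcl11a, Cux1, Cux2, Zeb2 and Zbtb18. IPC Notch peaks were found at 7 of 9 (6.92%), all but Tbr1 and Bcl11b. The same 5 genes with IPC RBPJ peaks had a peak in each of the 4 lists, as did 2.53% of protein-coding genes. Thus the IPC RBPJ list, larger than either Notch list, missed Tbr1, Fezf2, Bcl11b and Rorb, of which Fezf2 and Rorb each had 1 IPC Notch peak. The absence at Fezf2 depends on the start sites used: with start sites of protein-coding transcripts only, Fezf2 had 4 consensus peaks in place of 2, and 6 of the 9 genes had an IPC RBPJ peak. In the other direction, the only IPC RBPJ peak of Cux1 was 902 bp wide and held 0 GATC sites. With peaks of at least 1000 bp, 4 of the 9 genes had an IPC RBPJ peak. The shares of protein-coding genes under these other rules are not given, so neither count has a background beside it.

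**Figure D2:**
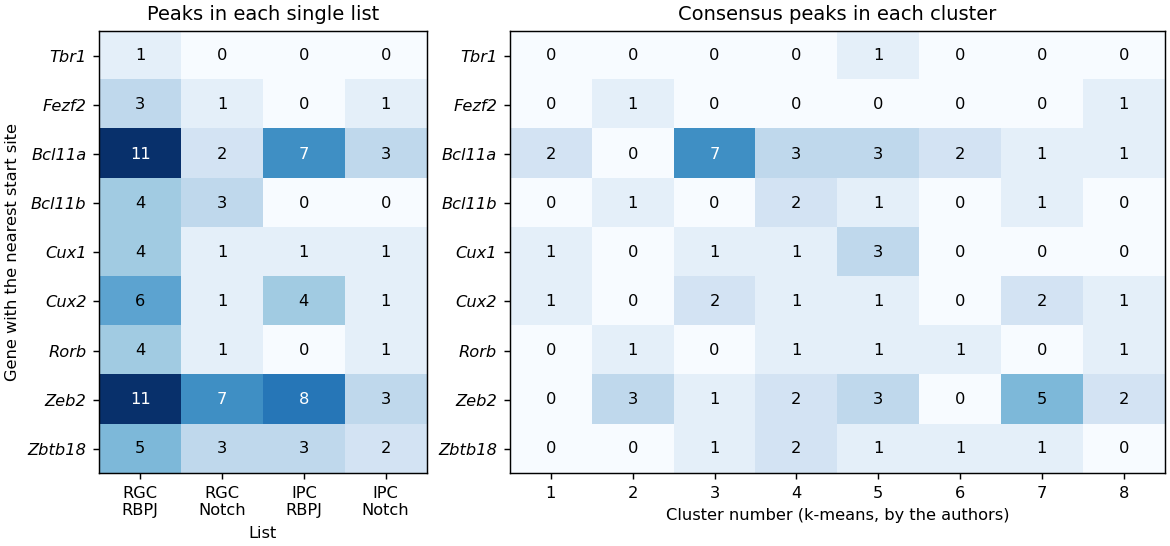
Number of peaks given to each gene in the 4 single lists (left) and number of its consensus peaks in each of the 8 clusters (right); darker cells hold more peaks. Bcl11a and Zeb2 each had 11 RGC RBPJ peaks, but Zeb2 had 7 RGC Notch peaks and Bcl11a had 2, and 7 of the 19 Bcl11a consensus peaks fell in cluster 3.

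Tbr1 (ENSMUSG00000035033, chr2:61802930-61814114, plus strand), the deep-layer factor, had a single peak. It was an RGC RBPJ peak at chr2:61796746-61799977 in cluster 5, 2.95 kb upstream of the gene and inside the body of Psmd14, which encodes a proteasome subunit. It was 3232 bp wide and held 6 RBPJ words and 9 GATC sites. No Notch peak and no IPC peak was given to Tbr1, and the peak would pass to a non-coding RNA gene if genes of all types were allowed.

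Fezf2 (ENSMUSG00000021743, chr14:12342094-12348189, minus strand) had 2 consensus peaks, 1 of which covered the whole gene. That peak, chr14:12339863-12349964, was 10102 bp wide, belonged to cluster 2 and was called in RGC RBPJ, RGC Notch and IPC Notch. The 3 lists did not share a single base there. The RGC Notch peak ran from 12339863 to 12345211, over the 3′ part of the gene, whereas the IPC Notch peak ran from 12346385 to 12349424, over the annotated 5′ end at 12348189. RGC RBPJ gave 2 peaks, of 2325 bp and 6057 bp, the wider of which overlapped both Notch peaks. RefSeq places a start of Fezf2 in the gap between the Notch peaks, and its promoter window was covered by RGC RBPJ alone. In the whole set, 93.7% of the 807 peaks called in 3 or 4 lists had bases common to every list called, and this was the only exception among the 8 peaks of the layer factors. The other Fezf2 peak was an RGC RBPJ peak of cluster 8 that lay 17.2 kb downstream of the 5′ end. The promoter window in the gap, 5′ to 3′ along the gene, held no RBPJ word and no GATC site and had a GC content of 61.3%.
Fezf2 promoter, chr14:12345816-12346115, minus strand: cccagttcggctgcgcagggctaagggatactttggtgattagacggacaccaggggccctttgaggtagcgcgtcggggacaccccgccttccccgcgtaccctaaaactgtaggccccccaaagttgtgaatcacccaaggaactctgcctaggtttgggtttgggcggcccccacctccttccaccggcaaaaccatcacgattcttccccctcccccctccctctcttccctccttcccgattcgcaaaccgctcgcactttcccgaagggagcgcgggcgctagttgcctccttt

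**Figure D3:**
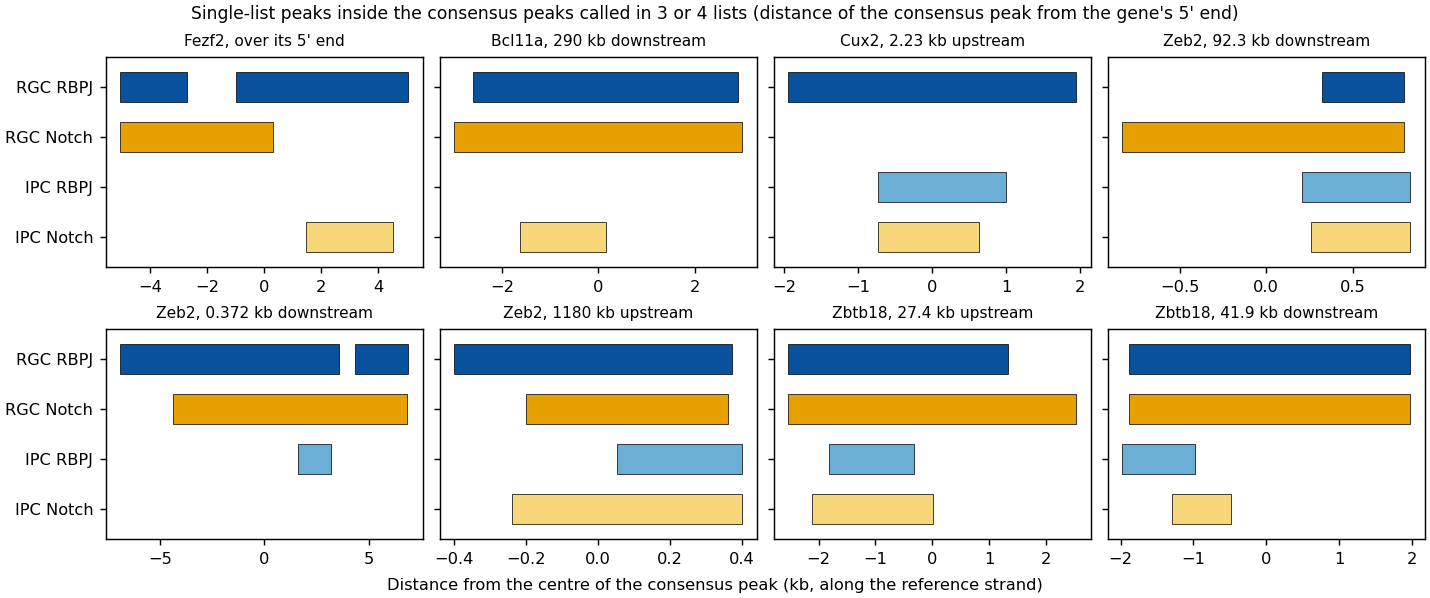
Extent of the single-list peaks inside the 8 consensus peaks called in 3 or 4 lists, drawn as distance in kb from the centre of the consensus peak, one row per list. At Fezf2 the RGC Notch and IPC Notch peaks did not overlap, whereas at the other 7 peaks the lists called had bases in common, from 310 to 1791 bp.

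Bcl11b (ENSMUSG00000048251, chr12:107910403-108003602, minus strand) was given peaks of the RGC lists alone. Such peaks were the common kind, at 66.1% of all consensus peaks and 57.4% of the 68. It had 4 RGC RBPJ and 3 RGC Notch peaks in 5 consensus peaks, and 2 of these were called in both RGC lists. The widest, at 5263 bp, was an RGC Notch peak of cluster 4, 21.4 kb inside the gene. Of the other peaks, 3 were intronic, between 29.1 and 66.3 kb from the 5′ end, and 1 was intergenic, 250.04 kb downstream of the 5′ end. No start site of Bcl11b lay under a peak. Its peaks held 25 RBPJ words, or 1.53 per kb, against 1.17 per kb under all consensus peaks. Among the 9 genes this density ran from 0.969 at Cux2 to 1.86 at Tbr1.

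The paralogue of Bcl11b, Bcl11a (CTIP1; ENSMUSG00000000861, chr11:24078056-24174123, plus strand), which takes part in area identity and in the choice between subcortical and callosal projection, had the most peaks. It had 11 peaks in RGC RBPJ, 2 in RGC Notch, 7 in IPC RBPJ and 3 in IPC Notch, and 47 protein-coding genes, Bcl11a among them, had at least as many consensus peaks. All 7 IPC RBPJ peaks fell in cluster 3, which was called almost only in IPC RBPJ (96.7% of its 3384 peaks genome-wide). Bcl11b had no IPC peak and no peak in cluster 3, and 11.6% of protein-coding genes had a cluster 3 peak. Most Bcl11a peaks lay far downstream of the gene. Their median distance from its 5′ end was 311.6 kb, and the farthest was 661.7 kb away, in an interval of 1477.7 kb with no other protein-coding gene. Because the nearest-gene rule has no limit on distance, these peaks have no measured link to Bcl11a. Within 100 kb, 4 of the 19 peaks remained.

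The Bcl11a peak called in most lists was chr11:24368321-24374305, in cluster 6, 290.3 kb downstream of the 5′ end. It was called in both RGC lists and in IPC Notch, the last covering 1791 bp common to the 3 lists, and was not called in IPC RBPJ. Nearer the gene, chr11:24096164-24099394 was called in both IPC lists and in neither RGC list. This was the only consensus peak of the 68 with that combination, whose share of all consensus peaks is not given. The peak nearest the 5′ end, chr11:24079535-24083870, was an RGC RBPJ peak of cluster 4. It began 1.48 kb inside the gene and covered the RefSeq promoter window of Bcl11a, shown here because it was one of 3 among 18 windows of the 9 genes that held the RBPJ word, and the only one of these called in RGC RBPJ alone. The word is in capitals, as TGGGAA, and 25.6% of 32851 RefSeq promoter windows held it on either strand.
Bcl11a promoter, chr11:24080445-24080744, plus strand: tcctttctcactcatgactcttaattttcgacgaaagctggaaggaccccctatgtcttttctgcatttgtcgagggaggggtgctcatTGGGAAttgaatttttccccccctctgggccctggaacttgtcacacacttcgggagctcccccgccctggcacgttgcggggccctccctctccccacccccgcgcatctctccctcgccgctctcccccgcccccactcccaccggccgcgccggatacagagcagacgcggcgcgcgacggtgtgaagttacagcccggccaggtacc

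Cux1 (ENSMUSG00000029705, chr5:136248135-136567490, minus strand) and Cux2 (ENSMUSG00000042589, chr5:121856366-122050102, minus strand), the upper-layer homeodomain factors, both had a peak over the 5′ end of the gene. At Cux1 it was chr5:136563058-136569360, 6303 bp wide, in cluster 4, called in RGC RBPJ and IPC Notch. At Cux2 it was chr5:122047745-122051364, 3620 bp wide, in cluster 7, called in both RBPJ lists. The second Cux2 peak, chr5:122052331-122056227, lay 2.23 kb upstream and was called in RGC RBPJ, IPC RBPJ and IPC Notch, with 1363 bp common to the 3 lists. At Cux2 the RGC RBPJ peak lay over the 5′ end itself, whereas the IPC RBPJ peak began 39 bp upstream of it. A further Cux2 peak, chr5:122000092-122003329 in cluster 8, covered an internal start site 46.8 kb from the 5′ end and was called in RGC RBPJ alone.

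Cux1 had 4 RGC RBPJ, 1 RGC Notch, 1 IPC RBPJ and 1 IPC Notch peaks, and Cux2 had 6, 1, 4 and 1. Of the 4 IPC RBPJ peaks of Cux2, 2 were those at and just upstream of the start, and the other 2 were intronic. All peaks of Cux1 overlapped its body, of 319.4 kb, and so did 7 of the 8 Cux2 peaks. At Cux1, RGC Notch (123.2 kb from the 5′ end) and IPC RBPJ (104.2 kb) were called at separate intronic peaks. At Cux2, RGC Notch was called 99.6 kb from the 5′ end together with RGC RBPJ, and IPC RBPJ alone was called nearby, 94.6 kb from the 5′ end.

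Rorb (ENSMUSG00000036192, chr19:18930605-19111196, minus strand), a nuclear receptor of layer IV neurons, had 4 RGC RBPJ, 1 RGC Notch and 1 IPC Notch peaks. Its 3 intronic peaks were called in RGC lists, and only the one at chr19:19057117-19060421, in cluster 4, was called in both RGC RBPJ and RGC Notch. The IPC Notch peak, 25.7 kb upstream, was 438 bp wide, the narrowest of the 68, and fell in cluster 6. No start site of Rorb lay under a peak.

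Zeb2 (ENSMUSG00000026872, chr2:44983632-45117395, minus strand), a zinc-finger repressor of postmitotic neurons, had 11 peaks in RGC RBPJ, 7 in RGC Notch, 8 in IPC RBPJ and 3 in IPC Notch. It had the most shared peaks, with 7 of its 16 called in 2 or more lists and 6 called in both cell types. The widest peak of the 9 genes, chr2:45103232-45117023 at 13792 bp, lay over the start region of Zeb2 in cluster 7. It ended 0.372 kb short of the outermost 5′ end and covered 3 of 4 RefSeq promoter windows of the gene. RGC RBPJ, RGC Notch and IPC RBPJ were called there, and the IPC RBPJ peak was the narrowest of them, 1605 bp against 11194 bp for RGC Notch.

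The 2 Zeb2 peaks called in all 4 lists both fell in cluster 2. The first, chr2:45023444-45025108, was intronic, over an internal annotated start site 92.3 kb from the 5′ end, with 474 bp common to the lists. The second, chr2:46297007-46297807, lay 1179.6 kb upstream of Zeb2, was only 801 bp wide and had 310 bp in common. It was the narrowest of the 4 peaks of this kind, whose median width was 2811 bp, against 4335 bp for all 141 such peaks. The next protein-coding gene beyond it, Acvr2a, starts far away, as the gap to the right of Zeb2 spans 3696.7 kb. Farther out, 3 peaks between 1305.2 and 1533.2 kb upstream were called in RGC RBPJ alone. With start sites of all gene types allowed, genes that are not protein-coding took 10 of the 16 peaks and 6 stayed with Zeb2.

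Zbtb18 (RP58; ENSMUSG00000063659, chr1:177442351-177450764, plus strand), a repressor needed for cortical neuron differentiation, had 5 RGC RBPJ, 3 RGC Notch, 3 IPC RBPJ and 2 IPC Notch peaks in 6 consensus peaks. Both of its 4-list peaks were intergenic and they flanked the gene. The upstream one, chr1:177409873-177414946, was 27.4 kb away in cluster 4, with 1505 bp common to the lists. The downstream one, chr1:177484237-177488193, was 41.9 kb from the 5′ end in cluster 7, with 317 bp in common, inside the left part of the RGC peaks, each 3864 bp wide. The peak over the gene itself, chr1:177445411-177451275, was called in RGC RBPJ alone, and an IPC RBPJ peak lay 3.32 kb upstream. A peak called in all 4 lists was found at 0.588% of protein-coding genes, and 2 of the 9 layer factors were among these 129 genes.

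**Figure D4:**
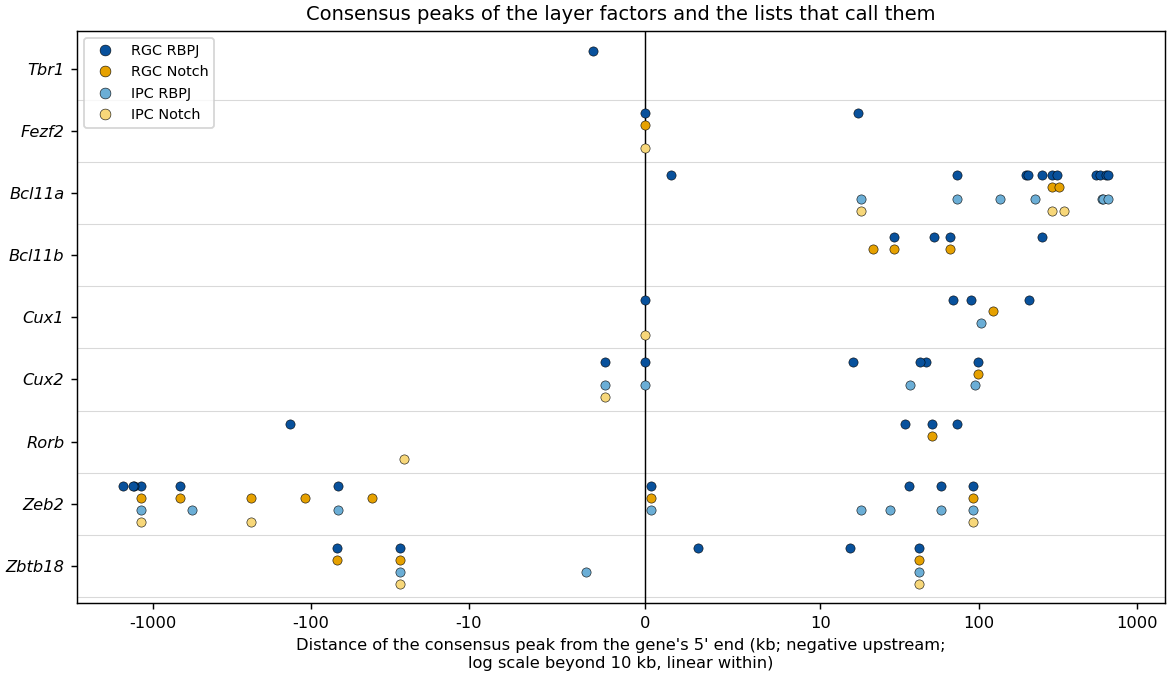
Distance of each consensus peak from the 5′ end of its gene in kb, negative upstream, on a scale that is linear within 10 kb and logarithmic beyond. Each dot is a list that called the peak. Bcl11a peaks all lie downstream of its 5′ end and reach 661.7 kb, and Zeb2 peaks reach 1533.2 kb upstream.

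Across the 9 genes, 27 peaks were intronic, 34 intergenic, 4 centred on an exon and 2 within 5 kb upstream, beside the Tbr1 peak in Psmd14. A start site lay under a peak at 6 of 9 genes, and at 16% of protein-coding genes. The median distance to the nearest start site was 51.3 kb, against 21.1 kb for all consensus peaks. Peaks over 500 kb from a start site made up 17.6% (12 of 68; 10.4 to 28.4%) and 3.14% of all consensus peaks, and all 12 belonged to Zeb2 and Bcl11a. The peaks were also somewhat wider, with a median of 2101.5 bp against 1890 bp, and 14.7% (8.19 to 25.0%) reached 5000 bp, against 5.19%.

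Peaks called in several lists made up a larger share at the layer factors than over the whole set, a difference for which the lists allow no test. Of the 68 peaks, 21 were called in 2 or more lists (30.9%; 21.2 to 42.6%), against 17.1% of all consensus peaks, and 8 were called in 3 or 4 lists (11.8%; 6.08 to 21.5%), against 3.88%. Without the peaks of Zeb2, which held the most shared peaks, the first share was 26.9%, and without those of Bcl11a it was 36.7%. The 25 other projection-neuron genes compared here gave 26.6%. Calls in both cell types were made at 14 of the 68 peaks (20.6%; 12.7 to 31.6%) and at 11.5% of all. When a list had to cover at least 50% of the consensus peak, 3 of the 68 were called in both cell types. By that rule 14 were called in 2 or more lists. The shares of the whole set under that rule are not given, so these 2 counts have no background beside them. Both RBPJ and Notch were called in RGCs at 13 peaks (19.1%; 11.5 to 30.0%), against 7.77%, and in IPCs at 6 peaks (8.82%; 4.11 to 17.9%), against 2.36%. The median width at the layer factors was 1804 bp for peaks called in 1 list, 3231 bp in 2, 8043.5 bp in 3 and 2811 bp in 4, the last 2 values over 4 peaks each. Over all consensus peaks these medians were 1717, 2943.5, 3611 and 4335 bp. The part of width, and of the Dam-only controls that RBPJ and Notch lists share, was not tested.

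Notch and RBPJ calls coincided unevenly. Of 19 RGC Notch peaks, 13 were also RGC RBPJ peaks (68.4%; 46.0 to 84.6%), against 43.8% of all RGC Notch peaks. Of 12 IPC Notch peaks, 6 were also IPC RBPJ peaks (50%; 25.4 to 74.6%), against 23.4% of all IPC Notch peaks. In RGCs, 7 of the 12 were also Notch peaks (58.3%; 32.0 to 80.7%), against 23.5%, and 8 were also RBPJ peaks (66.7%; 39.1 to 86.2%), against 53.7%. Of 47 consensus peaks with RGC RBPJ, 13 carried RGC Notch (27.7%; 16.9 to 41.8%), against 11.5% over the whole set. Of 23 with IPC RBPJ, 6 carried IPC Notch (26.1%; 12.5 to 46.5%), against 9.02%. RGC Notch was the only list called at 5 of the 68 peaks (7.35%, against 9.0% of all consensus peaks). IPC Notch was the only list called at 2 (2.94% against 3.55%), at Bcl11a (chr11:24426652-24428093) and Rorb. RBPJ was called in both cell types at 10 peaks (14.7%; 8.19 to 25.0%), against 6.85%, and Notch at 7 (10.3%; 5.08 to 19.8%), against 2.37%.

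The 8 clusters group consensus peaks by the binding intensity of the 4 data sets, so their make-up by list follows from how they were built. Cluster 5 held 14 of the 68 peaks (20.6%; 12.7 to 31.6%), close to its share of all consensus peaks (22.5%), and all 14 were called in RGC RBPJ. Cluster 3 held 12 (17.6%; 10.4 to 28.4%) against 16.3%, at 5 genes (11.6% of protein-coding genes had a cluster 3 peak), and all 12 were called in IPC RBPJ. Cluster 4, in which most peaks were RGC RBPJ calls and 41.7% were RGC Notch calls, held 12 (17.6%) against 9.79%, spread over 7 genes. Cluster 7, where RGC RBPJ and IPC RBPJ calls dominate, held 10 (14.7%) against 11%, of which 5 were at Zeb2. Cluster 2 held 6 (8.82%; 4.11 to 17.9%) against 4.76%. Cluster 6 held 4 (5.88%; 2.31 to 14.2%) against 10.8%, at Bcl11a, Rorb and Zbtb18 (3 of 9 genes, and 7.62% of protein-coding genes). Cluster 1 held 4 (5.88%) against 10.5%, and cluster 8 held 6 (8.82%) against 14.4%. Cluster 4 was the only cluster whose genome-wide share lay outside the interval of the layer factors, and its lower bound of 10.4% was close to that share.

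**Figure D5:**
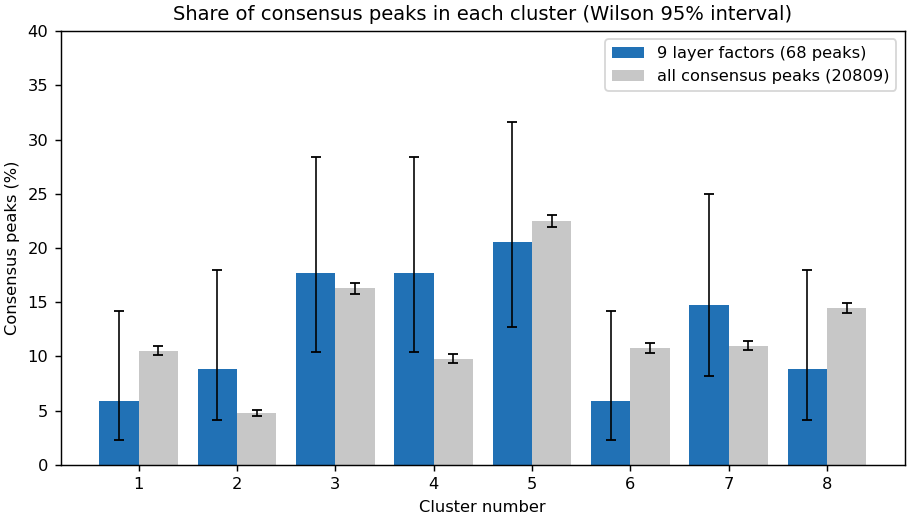
Share of consensus peaks in each cluster for the 9 layer factors (blue, 68 peaks) and for the whole set (grey, 20809 peaks), with Wilson 95% intervals over peaks. Cluster 4 stands at 17.6% against 9.79%, and the intervals of the other 7 clusters span the genome-wide share.

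Cluster profiles were compared for the 3 genes with at least 8 consensus peaks. Over the 8 clusters, the profile of Bcl11a was most like those of Robo2 (cosine 0.967) and Sdccag8 (0.957) among 442 genes. Zeb2 was most like Zfp462 (0.946) and Btg1 (0.917), and Cux2 was most like Rere (0.963) and Zfp521 (0.962). Among themselves, Bcl11a and Cux2 had a cosine of 0.822, Cux2 and Zeb2 of 0.761, and Bcl11a and Zeb2 of 0.458. The counts per cluster are small and the cosines are descriptions.

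RBPJ words were about as dense under the peaks of the layer factors as under all consensus peaks, 1.20 against 1.17 per kb. In the central 500 bp the value was 0.882 against 1.18 per kb. At least 1 word was found in 57 of 68 peaks (83.8%; 73.3 to 90.7%), against 82.9% of all. The homeodomain word TAATTA, searched as its own reverse complement, occurred at 0.402 against 0.358 per kb. The median GC content was 44.0% against 45.3%. GATC sites, which Dam needs, occurred at 2.59 per kb against 2.91. Only 5 peaks held no GATC site (7.35%; 3.18 to 16.1%), against 9.76% of all. All 5 were cluster 3 peaks called in IPC RBPJ alone: 2 at Bcl11a and 1 each at Cux1, Cux2 and Zbtb18. This is a trait of the cluster, as 51.3% of all 3384 cluster 3 peaks held no GATC site, beside 5 of the 12 here. With 500 bp added on each side, none of the 68 lacked GATC (0%, interval up to 5.35%).

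Other genes of projection-neuron identity were counted in the same way. Of 25 such genes, 24 had a consensus peak, with 229 peaks in all, a median of 7 a gene and 13.8 peaks per Mb of territory. RGC RBPJ peaks were found at 23 of them, RGC Notch at 18, IPC RBPJ at 21 and IPC Notch at 13, and 18 peaks (7.86%) were called in 3 or 4 lists. The genes with most peaks were the POU factor Pou3f3 (29), Foxp1 (25) and Sox5 (21), the last a regulator of deep-layer neuron migration. Crym, which encodes a thyroid hormone-binding protein, had none.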

How the data were processed

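In the deposited files the values were positions in bp on mm10 (GRCm38.p6), with no height, fold or q-value. The authors trimmed and mapped the reads, binned them by GATC fragment and ran MACS2 in its broad mode on each fusion against each Dam-only control; peaks that passed an FDR limit in all such pairs were deposited. They merged overlapping peaks of the 4 lists and clustered averaged intensities by k-means into 8 clusters. Each list holds a single set of positions for all replicates of a condition, so depth and the spread between samples are unknown. A Notch peak had to pass in 4 fusion samples and an RBPJ peak in 3. Of the 39 samples, 14 carried the fusions behind the lists, which were called against Dam-only controls, and 0 columns belonged to samples outside the series.

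Peaks on 21 nuclear chromosomes were given to the nearest 5′ end of a transcript of a protein-coding gene (GENCODE vM21), from the edge of the peak, with Python 3.11.15, numpy 2.4.6, pandas 2.3.3 and scipy 1.17.1. A list counted at a consensus peak from 1 bp of overlap, and this matched the list names in the cluster file at all 20809 peaks. Words were counted on both strands. Assignment and word counting were tested on simulated data. Genomic windows were read from GRCm38.p6 and promoter windows (all 9 genes matched) from RefSeq on the same build. No test was run. The genes and lists were chosen with earlier results of these data known. All 9 genes are named, with the 3 other projection-neuron genes with most peaks and any with none, the host gene of a peak, and the 2 genes closest in cluster profile. Peaks were described singly when they were called in 3 or 4 lists, lay over a start site or were farthest; other peaks named here were chosen after their values were seen.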

Additional observations from a re-analysis of the deposited data

How the results depend on the processing

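Of 137 values recomputed under another choice, 20 moved beyond a set limit and 117 did not. For counts of peaks the limit was a ratio of 1.5, so counts within it could still differ clearly. Within 100 kb of a start site, for example, RGC RBPJ went from 49 to 33 peaks and RGC Notch from 19 to 13. IPC RBPJ went from 23 to 17 and IPC Notch from 12 to 8, all within the limit. With start sites of genes of any type, the 9 genes kept 29 consensus peaks, 23 RGC RBPJ, 8 RGC Notch (at 5 genes), 10 IPC RBPJ and 6 IPC Notch peaks, and 13 peaks called in 2 or more lists. With overlap of the gene body in place of the nearest start, these were 31 consensus, 25 RGC RBPJ, 9 RGC Notch, 10 IPC RBPJ and 4 IPC Notch peaks (at 4 genes), with 12 called in 2 or more lists and 0% in cluster 6. Fewer peaks qualify by construction under both choices. Over all consensus peaks, 17.1% were called in 2 or more lists, and the shares of protein-coding genes under these choices are not given. Within 100 kb of a start site there were 43 consensus peaks, at 24.2 per Mb. When a list had to cover at least 50% of the consensus peak, 3 peaks were called in both cell types, a count with no share of the whole set beside it. The longer word TTCCCAC occurred at 0.309 per kb, and 0 peaks lacked GATC with 500 bp added on each side. Using only 1 start site a gene moved Fezf2 from 2 to 7 consensus peaks and Bcl11a from 19 to 23. Leaving out Zeb2 or Bcl11a, chosen after seeing the data, gave 17.8 and 11.9 consensus peaks per Mb. No paired analysis was possible because the lists combine replicates and hold no values of single samples. Leaving out each replicate and a stricter cut on peak height were not run for the same reason. The lists give no depth, so a gene without a peak in a list had none called there, which does not show absence of binding.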
